A study of Mus with 4 samples.

Results

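The *Hox* genes of clusters A to D were examined in *Six2*-positive nephron progenitors of control mice and of mice with conditional deletion of the prorenin receptor (PRR). They were taken as every non-control probe of the array whose accession matched a *Hoxa*, *Hoxb*, *Hoxc* or *Hoxd* symbol in a gene table of the GRCm38.p6 assembly. Of 39 such genes in that table, 37 were matched, by 44 of the 41174 probes of the array. Cluster A was covered with 11 of 11 genes (14 probes), cluster B with 10 of 10 (11 probes), cluster C with 8 of 9 (9 probes) and cluster D with 8 of 9 (10 probes). *Hoxc11* and *Hoxd8* were not matched and were not analysed here. *Hoxa3*, *Hoxa4*, *Hoxa13*, *Hoxb8*, *Hoxc10*, *Hoxd3* and *Hoxd9* have 2 probes each, and these genes are described by the probe with the higher mean signal, with the dimmer probe given beside it.

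*Mut* cells came from *Six2* Cre+/*PRR* flox/flox kidneys and *WT* cells from *Six2* Cre+/*PRR* +/+ littermates, both at embryonic day 15.5. Both genotypes therefore carried the same *Six2* GFP-Cre transgene, which drives Cre in nephron progenitors, and in *Mut* the floxed alleles are lost only where that Cre is or was active. GFP-positive cells of many kidneys were sorted and divided at random into pools, so P values measure only the spread between these pools, which may be technical. On arrays 1, 2 and 3 the *Mut* pool of that number carried Cy3 and the *WT* pool of the same number carried Cy5. By its labels array 4 paired *WT* with *WT*, pool 1 again in Cy5 and pool 2 now in Cy3. Both of its channels stood with *Mut* for *Hoxb8*, *Hoxd4* and the erythroid gene *Hba-a1*, and whether it carried the same RNA as arrays 1 and 2 was not determined, so every comparison with it holds for the pools as labelled. Dyes were not exchanged, and so dye and genotype cannot be told apart on arrays 1 to 3 alone.

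*Hox* genes encode homeodomain transcription factors that give cells their position along the body axis. In each cluster the genes lie in the order in which they are switched on, from the 3′ genes, used early and towards the head, to the 5′ genes, used late and towards the tail. Genes at the same place in different clusters are paralogs with overlapping functions. In the kidney, *Hox11* paralogs act in the cap mesenchyme together with *Eya1* and *Pax2* upstream of *Six2* and *Gdnf*, and *Hox10* paralogs are required in the stroma.

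The targeted gene, *Atp6ap2*, which encodes PRR, had 1 probe, at a log2 *Mut*/*WT* of -0.08, -0.19 and -0.25 on arrays 1 to 3 (mean -0.17, SE 0.0548, adjusted P = 0.0353, limma) against -0.19 for Cy3/Cy5 on the *WT* vs *WT* array. This probe did not separate the genotypes beyond the difference between both *WT* pools, and whether it lies in the deleted part of the gene was not determined. By quantitative RT-PCR the authors found PRR mRNA strongly reduced in sorted *Mut* cells, so this probe alone does not measure the deletion. Between 45.1% and 49.5% of probes were well above background in the *Mut* channels and between 54.1% and 58.3% in the *WT* channels. All 8 nephron progenitor markers (*Six2*, *Cited1*, *Eya1*, *Osr1*, *Sall1*, *Meox1*, *Crym* and *Gdnf*) were well above background in the *WT* channels. Markers of other cell types were read too. Of the ureteric bud markers 7 of 9 genes were well above background in all *WT* channels of arrays 1 to 3 and *Ret* in none, and of the endothelial markers *Emcn* and *Kdr* were so in all and *Pecam1*, *Tek* and *Tie1* in none.

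In *WT* nephron progenitors *Hox* genes were read above background from the 3′ genes (*Hoxa2*, *Hoxb2*) to group 12 (*Hoxd12*), and the genes that were not lay mainly at the ends of the clusters. In the *WT* channel 29 of 37 genes were well above background on all 3 arrays and 8 on none, among them *Hoxa13*, *Hoxb1*, *Hoxb13*, *Hoxc12*, *Hoxc13* and *Hoxd13*. These counts use the brighter probe of each gene, and for *Hoxd3*, whose brighter probe was above background in 0 *WT* channels, the dimmer probe was so in 1. By position, reading on all 3 arrays held for 5 of 8 genes of paralog groups 1 to 3, for 14 of 14 of groups 4 to 8 and for 10 of 15 of groups 9 to 13. Every gene of group 13 that was matched (*Hoxa13*, *Hoxb13*, *Hoxc13* and *Hoxd13*), the group that patterns the most posterior structures and the genital tract, was not well above background in any *WT* or *Mut* channel of arrays 1 to 3. Being dim on this array is a property of probe and transcript together and does not show that a gene was silent.

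**Figure D1:**
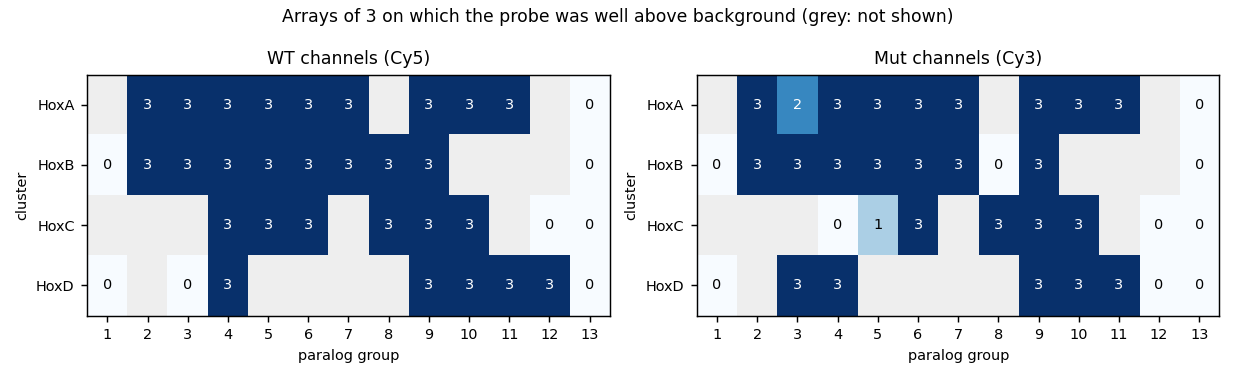
Number of arrays, of arrays 1 to 3, on which the brighter probe of the *Hox* genes was well above background, in the *WT* channels (Cy5, left) and the *Mut* channels (Cy3, right), with paralog group on the horizontal axis and cluster on the vertical axis. Grey cells are not shown, mostly because no gene or no matched probe lies there. The maps differ at genes where *WT* was read on all 3 arrays and *Mut* on fewer (*Hoxa3*, *Hoxb8*, *Hoxc4*, *Hoxc5* and *Hoxd12*) and at *Hoxd3*, whose brighter probe was read in *Mut* and not in *WT*.

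In the *Mut* channel 24 of 37 genes were well above background on all 3 arrays and 11 on none. *Hoxb8*, *Hoxc4* and *Hoxd12* were read in all *WT* channels and in 0 of the 3 *Mut* channels, *Hoxa3* in 2 and *Hoxc5* in 1. The *Mut* channels were always in Cy3, in which a smaller share of all probes was above background, so these counts are not a difference of genotype by themselves. For *Hoxc4* and *Hoxd12* the *WT* signal was at least 1.00-fold and at least 1.14-fold that of *Mut*, where the dim channel enters with its own signal or with the lowest signal that counts as measured, whichever is higher. For *Hoxb8* this bound was its mean ratio and was above 1.5-fold. These bounds leave out the spread between arrays.

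At an adjusted P under 0.05 and a difference over 1.5-fold (limma, Benjamini-Hochberg over 41166 probes), 2 of the 44 *Hox* probes were lower in *Mut*, against 1.46% of all probes (2.01% in either direction). These were the brighter probe of *Hoxb8* and the probe of *Hoxd4*. Under some of the alternatives described below neither was called, nor was any other probe of the array. No *Hox* probe was higher, against 0.554% of all probes, and at an unadjusted P under 0.05, 12 *Hox* probes were lower and 11 higher (2 and 0 of them by more than 1.5-fold), against 21.7% and 18.9% of all probes. Without the fold minimum, 10 *Hox* probes (22.7%) were lower and 9 (20.5%) higher, against 16.4% and 13.2% of all probes. With a dye term estimated from the *WT* vs *WT* array, only the brighter *Hoxb8* probe and *Hoxd4* kept an adjusted P under 0.05. Both were called lower with it, against 0.43% of all probes. The median log2 *Mut*/*WT* was 0.01 over the 44 *Hox* probes and -0.00096 over all probes.

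*Hoxb8* lies near the 5′ end of cluster B, between *Hoxb7* and *Hoxb9*, and is known for a role in the posterior nervous system and in blood cell progenitors. Its median raw intensity in the *WT* channel was 331, 341 and 447 on arrays 1, 2 and 3, over a local background of 51, 48 and 47. In the *Mut* channel it was 60.5, 58 and 64.5, on 0 of 3 arrays well above background. The *WT* channels were therefore read clearly and the *Mut* channels were at the floor.

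After normalization the log2 level of *Hoxb8* was 8.19, 8.04 and 8.37 in the *WT* pools and 6.61, 6.47 and 6.51 in the *Mut* pools, with no overlap. Its *Mut*/*WT* ratio on the log2 scale was -1.58, -1.57 and -1.86 on arrays 1 to 3, a mean of -1.67 (SE 0.064, 95% interval -1.81 to -1.53, adjusted P = 4.15e-08, limma). *Hoxb8* thus read 3.19-fold lower in *Mut*, a point value that takes the *Mut* channel at its own dim signal. The dimmer *Hoxb8* probe was above background in 1 *WT* channel and in 0 *Mut* channels, and its log2 *Mut*/*WT* of -0.35, -0.22 and -0.44 had the same sign (mean -0.33, adjusted P = 0.00112, limma) but stayed short of 1.5-fold.

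*Hoxd4* lies on the 3′ side of cluster D. It patterns the hindbrain and the upper spine and is known as a target of retinoic acid. Its median raw intensity was 1803, 2067.5 and 2555.5 in the *WT* pools and 270, 329 and 296 in the *Mut* pools, and both channels were well above background on every array. The log2 level was 10.43, 10.59 and 10.61 in *WT* and 8.72, 9.02 and 8.88 in *Mut*, so the lowest *WT* pool was far above the highest *Mut* pool.

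The log2 *Mut*/*WT* of *Hoxd4* was -1.71, -1.57 and -1.73, a mean of -1.67 (SE 0.055, 95% interval -1.79 to -1.55, adjusted P = 9.43e-09, limma), that is 3.18-fold lower in *Mut*. In RNA of bulk cells, fewer cells that express a gene and less RNA of that gene per cell cannot be told apart.

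The genes beside them in the clusters were not called. On the log2 scale the *Mut*/*WT* ratio was -0.10 (SE 0.052, adjusted P = 0.185) for *Hoxb7*, on the 3′ side of *Hoxb8*, and 0.30 for *Hoxb9*, on its 5′ side (-0.71 and -0.31 with median centring of the arrays in place of loess). *Hoxd3*, on the 3′ side of *Hoxd4*, read 0.17 with its brighter probe and -0.23 with its dimmer one, and *Hoxd9*, the nearest matched gene on the 5′ side, read -0.00 and -0.20 (-0.50 for the brighter probe with median centring). *Hoxb4*, the paralog of *Hoxd4* in cluster B, had -0.34 (-0.74 with median centring), and the paralogs *Hoxa4* and *Hoxc4* had 0.09 and -0.10. *Hoxc8*, the paralog of *Hoxb8* in cluster C, had 0.21. Median centring lowered the ratios of bright probes in general. Over the 22009 probes well above background in a channel on each of arrays 1 to 3 the median log2 *Mut*/*WT* was -0.36 with it and -0.03 with loess, and 27.5% and 2.72% of them were more than 1.5-fold lower. The shares more than 1.5-fold higher were 0.0454% and 1.04%. Of the 36 *Hox* genes reported, 11 were more than 1.5-fold lower with median centring and 2 with loess, so the ratios of bright genes depend on this choice.

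**Figure D2:**
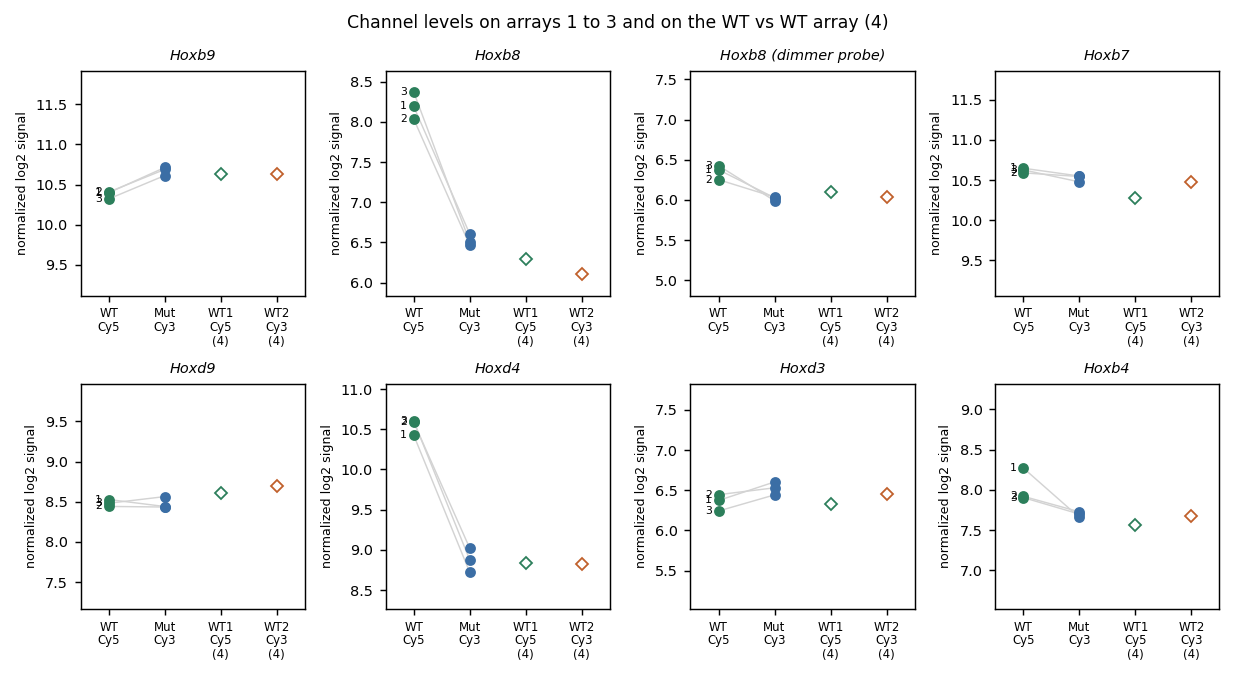
Normalized log2 signal of *Hoxb8* (both probes), *Hoxd4*, 4 genes beside them and *Hoxb4*, one panel per probe, each spanning the same range of log2 units. Filled points are the *WT* (Cy5) and *Mut* (Cy3) pools of arrays 1 to 3, joined within an array and numbered at the *WT* point, and open diamonds are *WT* pools 1 and 2 on the *WT* vs *WT* array (4). For the brighter *Hoxb8* probe and for *Hoxd4* the diamonds lie with the *Mut* pools, at 6.29 and 6.10 and at 8.83 and 8.83.

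The *WT* vs *WT* array read both genes at the *Mut* level in pools labelled *WT*. For *Hoxd4* both *WT* pools read 8.83 there, next to the *Mut* mean of 8.87 and far from the *WT* mean of 10.54. *WT* pool 1, in the same dye as on array 1, was 1.60 log2 units lower than on array 1, and its raw intensity was 605 in place of 1803. For *Hoxb8*, *WT* pool 1 read 6.29 in place of 8.19, with a raw intensity of 69.5 in place of 331 over a background of 51 on both arrays, and was not well above background.

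Set against *WT* pool 2 in the same dye, Cy3, the *Mut* mean was 0.05 log2 units above for *Hoxd4* and 0.43 above for *Hoxb8*, the latter between channels that were all dim. Thus the calls of *Hoxb8* and *Hoxd4* rest on the Cy5 channels of arrays 1 to 3, and for neither gene was the *Mut* mean below the *WT* pool that carried the same dye. Of all probes called lower, 88.3% had a *Mut* mean below that pool, and *Hoxb8* and *Hoxd4* were among the rest. The ratio within the *WT* vs *WT* array was -0.00 for *Hoxd4*, and with a dye term estimated from it *Hoxd4* was at -1.66 (adjusted P = 4.97e-05, limma). That term uses only the ratio within the array and not its levels. For *Hoxb8* neither channel of that array was well above background, so its dye term (log2 Cy3/Cy5 of -0.19) is a ratio at the floor and tests no dye effect on this probe.

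Across the array, *WT* pool 1 in Cy5 was more than 1.5-fold lower on the *WT* vs *WT* array than on array 1 at 0.517% of probes, and among the *Hox* probes at 3 of 44, *Hoxb8*, *Hoxd4* and *Hoxb4*. It was more than 1.5-fold higher at 0.449% of all probes and at 0 *Hox* probes. On the *WT* vs *WT* array this pool lay closer to the mean of the *Mut* pools than to that of the *WT* pools at 39.3% of all probes, at 27.9% of those called lower and at 19 of the 44 *Hox* probes. In the same dye, 0 *Hox* probes had a *Mut* mean more than 1.5-fold below or above *WT* pool 2, against 0.345% and 0.0632% of all probes. Why these *WT* pools read differently on the arrays was not tested.

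Markers of other cell types differed between the channels as well. The summed linear level of 6 erythroid markers was 3431 to 3619 in *Mut* and 1653 to 1827 in *WT* on arrays 1 to 3, and 3997 and 3496 in *WT* pools 1 and 2 on the *WT* vs *WT* array, with 1 of 7 probes called higher in *Mut* and with *Hba-x* and *Hbb-bh1* among those not well above background in *WT*. The sum was mostly that 1 probe, of the adult globin gene *Hba-a1*, with log2 levels of 11.63, 11.59 and 11.54 in *Mut*, 10.34, 10.44 and 10.48 in *WT*, and 11.78 and 11.56 in *WT* pools 1 and 2 on the *WT* vs *WT* array. The sum of 10 markers of the differentiating nephron was 1956 to 2070 in *Mut* and 1605 to 1676 in *WT*, and 2176 and 2149 on the *WT* vs *WT* array, with 1 of 12 probes higher and *Nphs1* among those not well above background in *WT*. The sum of 8 stromal markers was 6213 to 7579 in *Mut* and 5121 to 5359 in *WT*, and 5370 and 6191 on the *WT* vs *WT* array, with 3 of 15 probes higher and 0 of the 8 markers missing. That of the nephron progenitor markers was 22990 to 24740 in *Mut* and 25990 to 27720 in *WT*, and 26330 and 24050 on the *WT* vs *WT* array, with 2 of 10 probes called lower. Of all probes, 0.554% were called higher and 1.46% lower. Of the ureteric bud, endothelium and macrophage lists, 0 of 11, 0 of 7 and 0 of 8 probes were called. The part of these cells in the *Hoxb8* and *Hoxd4* values was not tested.

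**Figure D3:**
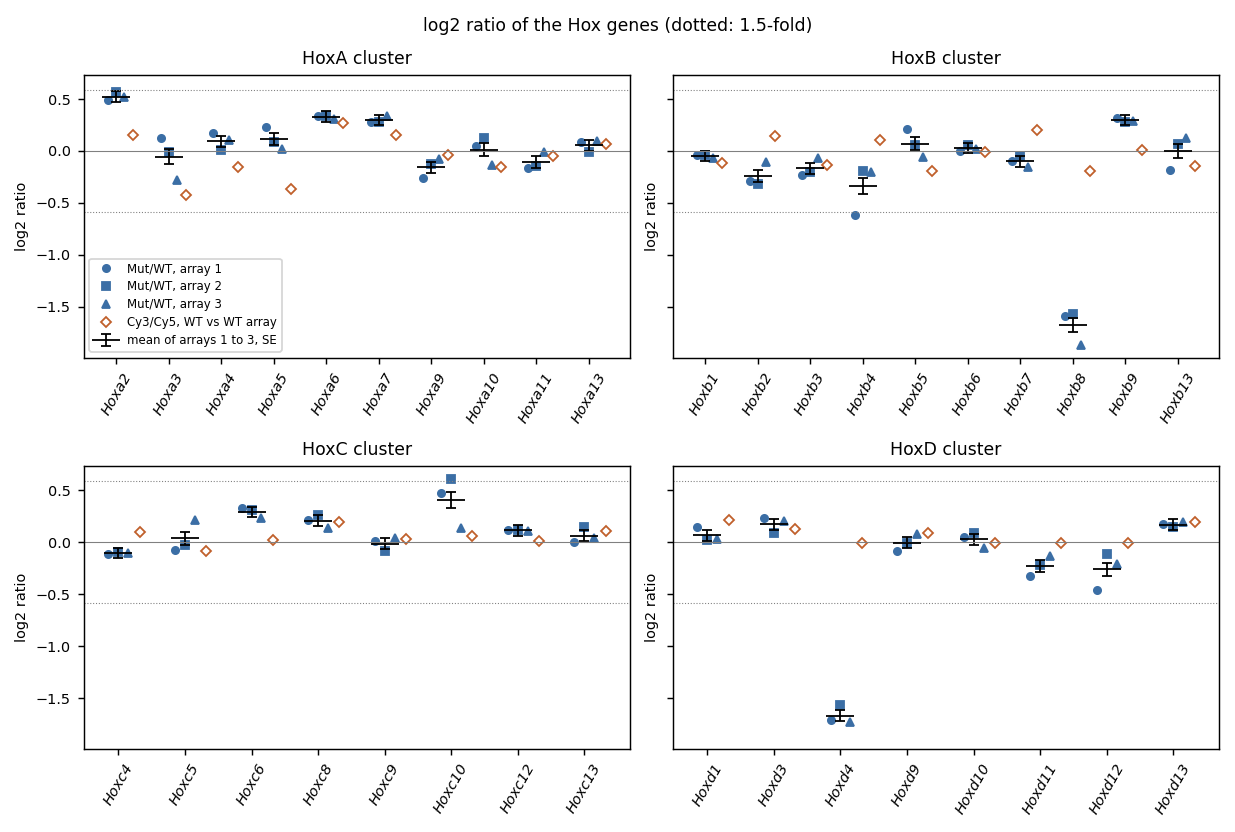
log2 *Mut*/*WT* of the brighter probe of the *Hox* genes on arrays 1, 2 and 3 (blue symbols), the mean of the 3 arrays with its standard error from limma (black), and log2 Cy3/Cy5 on the *WT* vs *WT* array (open diamonds), one panel per cluster in order of paralog number. Dotted lines mark 1.5-fold, and of the genes shown only *Hoxb8* (-1.67) and *Hoxd4* (-1.67) have a mean beyond them.

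In cluster A 0 of 14 probes were called, and 3 of 11 genes passed the adjusted P alone, all of them higher, against 13.2% of all probes. *Hoxa2*, which patterns the second pharyngeal arch and the hindbrain, was the gene just short of the fold minimum. Its log2 level was 7.85, 7.98 and 7.80 in *Mut* and 7.37, 7.41 and 7.28 in *WT*, and its log2 *Mut*/*WT* was 0.49, 0.57 and 0.52 (mean 0.52, SE 0.051, adjusted P = 3.26e-05, limma; 0.18 with median centring). All 3 *Mut* pools lay above all 3 *WT* pools, yet on the *WT* vs *WT* array *WT* pool 2 in Cy3 read 7.88, level with the *Mut* pools, and the mean difference in the same dye was -0.01.

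The mean ratio of *Hoxa6* was 0.33 (adjusted P = 0.000559, limma) and that of *Hoxa7* 0.30 (adjusted P = 0.00113, limma), and 0.08 and -0.29 with median centring. On the *WT* vs *WT* array Cy3/Cy5 was 0.27 for *Hoxa6* and 0.16 for *Hoxa7*, and with the dye term these genes were at 0.06 and 0.14. The *Mut*/*WT* values of these genes were therefore of the same sign as the difference between both *WT* pools. *Hoxa5*, which acts in lung and gut and had 0.11 (adjusted P = 0.163; 0.47 with the dye term, adjusted P = 0.079, limma), and *Hoxa3*, a gene of the thymus and parathyroid, had the lowest Cy3/Cy5 values of the *WT* vs *WT* array in cluster A, -0.36 and -0.42.

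*Hoxa3* had -0.05 and -0.14 with its 2 probes, *Hoxa4* 0.09 and 0.06, and *Hoxa13*, a gene of limb tips and the genital tubercle, 0.06 and -0.00. *Hoxa9*, known from blood progenitors, was below *WT* in all 3 *Mut* pools, at 10.29, 10.28 and 10.31 against 10.55, 10.41 and 10.39, with a mean ratio of -0.16 (adjusted P = 0.053, limma; -0.76 with median centring).

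In cluster B the genes on the 3′ side had negative ratios. *Hoxb2*, *Hoxb3* and *Hoxb4*, which pattern the hindbrain and neck, had a mean log2 *Mut*/*WT* of -0.24, -0.17 and -0.34 (adjusted P = 0.00939, 0.0378 and 0.00637, limma), all short of 1.5-fold. With the dye term they had -0.38, -0.03 and -0.44 (adjusted P = 0.159, 0.936 and 0.207, limma). With median centring they had -0.82, -0.57 and -0.74, and *Hoxb2* and *Hoxb4* were then past 1.5-fold. For *Hoxb4* array 1 stood apart, since its log2 *Mut*/*WT* was -0.61 there and -0.19 and -0.20 on arrays 2 and 3, and the level of *WT* pool 1 was 8.27 against 7.92 and 7.90. On the *WT* vs *WT* array the pool labelled *WT* pool 1 read 7.56, 0.71 log2 units lower and below all 3 *Mut* pools (7.66, 7.73 and 7.70).

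*Hoxb5* and *Hoxb6*, at the middle of the cluster, had 0.07 and 0.03 (-0.51 and -0.60 with median centring), and *Hoxb6* varied little over the 8 channels, between 11.14 and 11.20. *Hoxb9* was above *WT* in all 3 *Mut* pools, with levels of 10.71, 10.69 and 10.61 against 10.40, 10.41 and 10.32 and a mean ratio of 0.30 (SE 0.051, adjusted P = 0.00112, limma), but -0.31 with median centring. On the *WT* vs *WT* array *Hoxb9* read 10.63 and 10.64, within the range of the *Mut* pools. *Hoxb1*, whose probe is spotted 10 times, had -0.04, -0.04 and -0.07. *Hoxb13*, a gene of the prostate and the tail end, was dim and had 0.00.

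In cluster C 0 of 9 probes were called and 6 of 8 genes had a ratio above 0. *Hoxc10* had the highest mean, 0.41 (SE 0.078, adjusted P = 0.00234, limma), with 0.47, 0.61 and 0.13 on arrays 1, 2 and 3, and -0.18 with median centring. Its levels were 10.29, 10.34 and 9.86 in *Mut* and 9.82, 9.73 and 9.73 in *WT*, so that *Mut* pool 3 lay close to *WT*. The dimmer *Hoxc10* probe had 0.16 (adjusted P = 0.0512, limma).

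*Hoxc6*, active in the thoracic region, had 0.29 (adjusted P = 0.00145, limma; -0.33 with median centring) and *Hoxc8* 0.21 (adjusted P = 0.0125, limma), with Cy3/Cy5 on the *WT* vs *WT* array at 0.02 and 0.20. *Hoxc9* was level in all channels, from 11.33 to 11.44, with a mean log2 *Mut*/*WT* of -0.01 (95% interval -0.13 to 0.10), but -0.65 with median centring. *Hoxc4* had -0.10, *Hoxc5* 0.04, *Hoxc12* 0.12 and *Hoxc13*, a gene of hair and nail, 0.06, and of these none passed the test.

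In cluster D *Hoxd4* was the 1 probe of 10 that was called. Of the genes on its 5′ side, *Hoxd9* and *Hoxd10* had -0.00 and 0.03, and *Hoxd11* and *Hoxd12* had -0.23 and -0.26 (adjusted P = 0.00986 and 0.0113, limma). *Hoxd12*, a limb gene, was not well above background in *Mut*, and array 1 (-0.46) again stood apart from arrays 2 and 3 (-0.12 and -0.21). *Hoxd13*, a limb gene too, was dim in both channels, and its mean of 0.17 (adjusted P = 0.0256, limma) was -0.02 with the dye term. *Hoxd1* was dim as well, at 0.07. The probes of *Hoxd3* disagreed in sign, 0.17 (adjusted P = 0.0317, limma; *Mut* 1.13-fold *WT*, which was dim) against -0.23 (adjusted P = 0.00704, limma). Those of *Hoxd9* differed, -0.00 against -0.20 (adjusted P = 0.0337, limma).

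Of the *Hox10* and *Hox11* paralogs, those with known roles in the kidney, *Hoxa10*, *Hoxc10*, *Hoxd10*, *Hoxa11* and *Hoxd11* were well above background in all channels of arrays 1 to 3 and were not called, and *Hoxc11* was not analysed. *Hoxc10* is described with cluster C. *Hoxa11*, which together with its paralogs is required for ureteric bud outgrowth and nephron formation, had log2 levels of 10.53, 10.52 and 10.76 in *Mut* and 10.70, 10.66 and 10.77 in *WT*, which overlap. Its log2 *Mut*/*WT* was -0.11 (95% interval -0.23 to 0.01, adjusted P = 0.166, limma). *Hoxd11* was below *WT* in all 3 *Mut* pools, 7.63, 7.74 and 7.84 against 7.95, 7.96 and 7.97, with a mean of -0.23 (95% interval -0.35 to -0.10, adjusted P = 0.00986, limma), and *WT* pools 1 and 2 on the *WT* vs *WT* array read 7.89 and 7.88. The *WT* pools of all arrays thus ranged from 7.88 to 7.97 for *Hoxd11*, close above *Mut* pool 3 at 7.84, and the mean difference was 1.17-fold. With the dye term the ratio of *Hoxd11* was -0.21 (adjusted P = 0.409, limma). *Hoxa10* had 0.01 (95% interval -0.12 to 0.14) and *Hoxd10* 0.03 (95% interval -0.09 to 0.15). With median centring in place of loess the ratio was -0.72 for *Hoxa11*, -0.63 for *Hoxd11*, -0.60 for *Hoxa10* and -0.56 for *Hoxd10*, outside each of these intervals, so how far these paralogs differ depends on the normalization.

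Over all *Hox* probes the levels of the *Mut* pools lay below all *WT* pools at 13 of 44 (29.5%) and above them at 9 (20.5%), against 20.5% and 17.5% of all probes. The SD of the log2 ratio between arrays was 0.00361 to 0.246 with a median of 0.0759. On the *WT* vs *WT* array the log2 Cy3/Cy5 of the *Hox* probes ranged from -0.423 to 0.267, and 0 of them passed 1.5-fold, against 0.00971% of all probes with Cy3 below Cy5 and 0.085% with Cy3 above. Differences of up to this size are seen between *WT* pools and dyes alone. Apart from *Hoxb8* and *Hoxd4* only *Hoxa2*, *Hoxa6*, *Hoxa7*, *Hoxb9*, *Hoxc6* and *Hoxc10* had a mean outside that range, and *Hoxa7*, *Hoxb9*, *Hoxc6* and *Hoxc10* turned sign with median centring. The range comes from the *WT* vs *WT* array alone and its upper end is *Hoxa6* itself. Lying outside it therefore does not set a gene beyond pool and dye differences. With the dye term none of these genes besides *Hoxb8* and *Hoxd4* had an adjusted P under 0.05 (limma).

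The proteins that bind DNA together with Hox factors were also measured. Of the TALE cofactors (*Pbx*, *Meis* and *Pknox* genes), all 9 genes were matched by 15 probes, and 0 were called (limma), with 3 (20.0%) lower and 4 (26.7%) higher at an unadjusted P under 0.05, against 21.7% and 18.9% of all probes. The brightest were *Meis2*, with a mean ratio of 0.11 (adjusted P = 0.241), and *Pbx2*, with -0.08 (adjusted P = 0.29). The median over the 15 probes was 0.07.

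Of 23 regulators of *Hox* clusters, among them *Cdx* factors, Polycomb and Trithorax proteins and retinoic acid receptors, 19 were matched by 25 probes. *Cdx1*, *Cdx2* and *Cdx4*, which act on *Hox* genes in the early tail bud, were not well above background in any *WT* channel. Only the dimmer probe of *Suz12*, a Polycomb subunit, was called, with a log2 *Mut*/*WT* of -0.74, -0.77 and -0.67 (mean -0.73, adjusted P = 3.87e-06, limma). This was 1 of 25 probes called lower, against 1.46% of all probes. The brighter *Suz12* probe read 0.36, the opposite sign. At an unadjusted P under 0.05, 10 of the 25 probes (40.0%) were lower and 3 higher, against 21.7% and 18.9% of all probes. The median over the 25 probes was -0.10.

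Of the partners and targets of *Hox11* paralogs in the kidney, all 8 were matched by 12 probes, and 1 probe was called lower, against 1.46% of all probes. It was the dimmer probe of *Osr1*, a transcription factor of the intermediate mesoderm and early progenitors, at -1.06, -0.64 and -0.29 (mean -0.66, SE 0.106, adjusted P = 0.000737, limma). Array 1 decided this call, since the mean of arrays 2 and 3 was -0.46, short of 1.5-fold. The brighter *Osr1* probe read -0.35. At an unadjusted P under 0.05, 5 of the 12 probes (41.7%) were lower and 3 higher, against 21.7% and 18.9% of all probes. The median over the 12 probes was -0.09.

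Of 16 genes in or beside the clusters, 10 were matched by 16 probes and 0 were called (limma), with 3 (18.8%) lower and 2 (12.5%) higher at an unadjusted P under 0.05, against 21.7% and 18.9% of all probes. The brightest were *Mtx2*, beside cluster D, with 0.37 (adjusted P = 0.000675) and -0.09 and 0.05 with its other probes, and *Hibadh*, beside cluster A, with -0.06 (adjusted P = 0.423). *Hotair*, *Hottip*, *Hoxa11os*, *Hoxaas3*, *Hoxb3os* and *Hoxb5os*, the non-coding RNAs of the clusters, were not matched. No probe of *Evx2*, *Lnpk* or *Mtx2*, the genes beside cluster D, was called.

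The authors' deposited log ratios, made after background subtraction, put *Hoxb8* at -5.17, with its *Mut* channel not above background, and *Hoxd4*, read well in both channels, at -1.84. Under those ratios 4 *Hox* probes were lower (against 2.95% of all probes) and 3 higher (against 3.62%). These were both probes of *Hoxb8*, *Hoxd4* and *Hoxc4* on the lower side and *Hoxa2*, *Hoxa6* and *Hoxd3* on the higher side. With a normexp offset of 0 and with median centring, 0 *Hox* probes and 0 of all probes were called, and there *Hoxb8* read -3.00 and -1.99 and *Hoxd4* -1.78 and -2.24 (adjusted P = 0.111 and 0.0788 for both genes, limma).

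**Figure D4:**
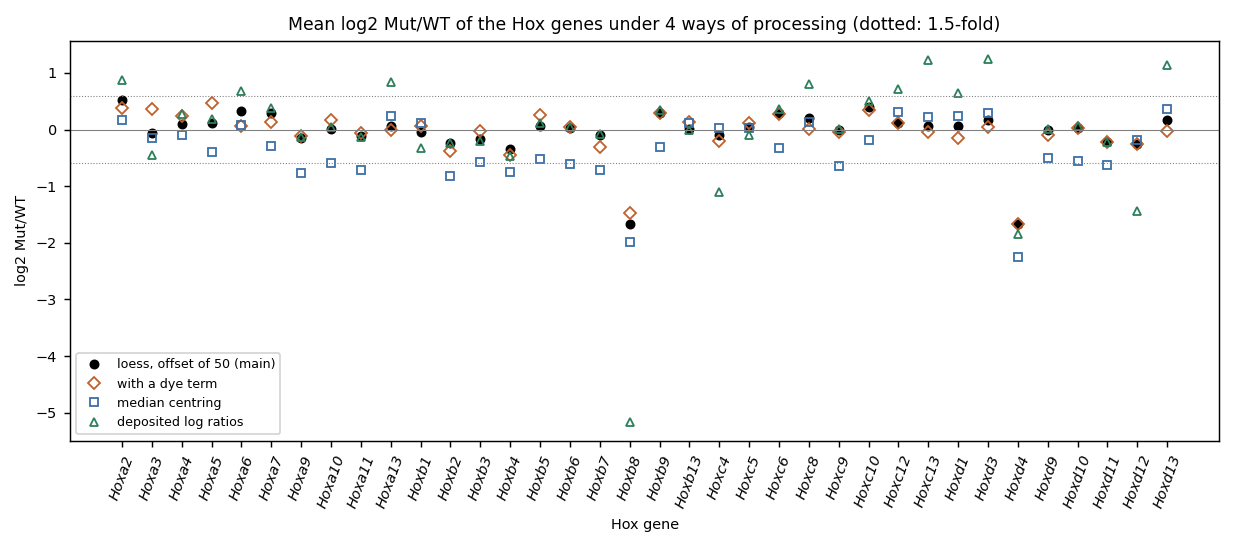
Mean log2 *Mut*/*WT* of the brighter probe of the *Hox* genes under 4 ways of processing, in order of cluster and paralog number, with dotted lines at 1.5-fold. *Hoxb8* and *Hoxd4* lie far below the lines under each of them (the dye term of *Hoxb8* comes from channels not above background), while *Hoxa7*, *Hoxb9*, *Hoxc6* and *Hoxc10* change sign under median centring.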

How the data were processed

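RNA of sorted nephron progenitors was measured on 4 dual-colour arrays, of which 3 paired *Mut* with *WT*. The authors extracted the scans with Agilent Feature Extraction 10.7.3.1, and the deposited intensity values are linear signals of each spot and its local background, not normalized. The authors also deposited log10 ratios (red over green) that this program made from background-subtracted, dye-normalized signals, and the series table held the same values. The median signals were corrected with normexp (offset 50), normalized by loess within arrays and averaged over spots of a probe, and control and outlier spots were left out. Ratios were turned to Cy3 over Cy5 and tested against 0 with limma 3.58.1 in R 4.3.3. P values were adjusted by Benjamini-Hochberg across 41166 probes, and a probe was called at an adjusted P under 0.05 and over 1.5-fold, as in the methods of the study. Levels are log2 signals after Aquantile normalization. Signals of different probes were ranked only to pick the brighter probe or the genes named, and were added only in the sums of marker lists, in which bright probes weigh most. Precision is limited by the number of arrays.

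Symbols came from a gene table of GRCm38.p6 for 22951 of 41174 probes, and it was used for names and gene order only. Named were the *Hox* genes with a probe and, of each further list, the genes called or else the 2 brightest. The members and lists were chosen with earlier results of these data known. The test was checked on simulated data. Pools of the same array deviated together (Pearson correlation 0.388, 0.431 and 0.32), so the ratio within an array is the paired design. The alternatives were the deposited ratios, the offset, the centring, outlier spots kept, dim probes left out, a dye term, unpaired channels, leaving out each array, the methods' *t*-test, adjusted P alone and the median over probes. The results of some genes are not reported here. The authors' GeneSpring values were not analysed, and 1 slide held all arrays, so batches could not be tested.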

Additional observations from a re-analysis of the deposited data

How the results depend on the processing

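Of the 36 *Hox* genes reported, 14 kept the sign of their log2 *Mut*/*WT* under every alternative that gave them a value, *Hoxb8* and *Hoxd4* among them. The filter on dim probes left 29 genes, and the median over probes was taken for the 7 with 2 probes. Probes called lower or higher were 2 and 0 with outlier spots kept, with a filter on dim probes, with the dye term, without any 1 replicate and by the methods' *t*-test unadjusted. With no replicate block, that is with unpaired channels, they were 2 and 0 as well. The counts were 4 and 3 with the deposited ratios, 10 and 9 with adjusted P alone, and 0 and 0 with an offset of 0, with median centring and by the *t*-test after Benjamini-Hochberg adjustment, under each of which 0 of all probes were called. The deposited ratios gave 2 regulator probes in place of 1 and 0 kidney partner probes in place of 1, as did the dye term for the latter, and leaving out each replicate gave 0 to 1. The cause was not tested.

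Signs turned with the deposited ratios for *Hoxc5* (-0.091), *Hoxc9* (0.0011) and *Hoxd9* (0.0016), and with an offset of 0 for *Hoxb13* (-0.18), *Hoxc9* (0.0017) and *Hoxd9* (0.034). With median centring they turned for *Hoxa4* (-0.093), *Hoxa5* (-0.39), *Hoxa7* (-0.29), *Hoxa10* (-0.60), *Hoxb1* (0.11), *Hoxb5* (-0.51), *Hoxb6* (-0.60), *Hoxb9* (-0.31), *Hoxc4* (0.035), *Hoxc6* (-0.33), *Hoxc10* (-0.18) and *Hoxd10* (-0.56). With the dye term they turned for *Hoxa3* (0.37), *Hoxa13* (-0.011), *Hoxb1* (0.061), *Hoxc13* (-0.046), *Hoxd1* (-0.15) and *Hoxd13* (-0.021), and with the median over probes for *Hoxd3* (-0.027). Leaving out 1 replicate gave -0.041 to 0.086 for *Hoxa10*, -0.14 to 0.057 for *Hoxa3*, -0.059 to 0.095 for *Hoxb13*, -0.049 to 0.094 for *Hoxc5*, -0.037 to 0.023 for *Hoxc9*, -0.0015 to 0.070 for *Hoxd10* and -0.047 to 0.038 for *Hoxd9*.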
